A study of Rattus norvegicus with 20 samples.

Results

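Normal mammary tissue of obesity-prone rats was compared with normal mammary tissue of lean control rats, with 3 samples in each group, chosen by their sample titles from the 20 arrays of the series. The animals were female Jcl:SD (Sprague-Dawley) rats. Obesity-prone rats (OP) were the heavier animals on a high-fat diet with 45 kcal% fat, divided by body weight at 7 weeks of age. The lean control rats (LC) were kept on standard food that drew 10 kcal% from fat, so diet and body weight differ together between OP and LC and cannot be told apart. Obesity-resistant rats (OR) stayed lighter on the same high-fat diet, and values of their 2 normal tissues are given beside some results. Rats of every group, the controls included, had received 4 Gy of gamma rays from a Cs-137 source to the whole body (0.5 Gy per min) at 7 weeks and were watched for 30 weeks, so no tissue is from an unirradiated rat. Normal tissue came from age-matched rats. Whether every sample is another rat is not stated in the labels, and p-values here reflect only how these samples vary. Each sample was hybridised in 1 colour (Cy3) to an Agilent Whole Rat Genome array, and levels are given as normalized log2 signals, on which a difference of 1 is a doubling.

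The mammary gland is a branching epithelium embedded in a fat pad. Luminal cells line the ducts and make milk proteins under prolactin, which acts through its receptor and the transcription factor STAT5. Myoepithelial cells surround the luminal cells and contract. The fat pad holds adipocytes, fibroblasts, vessels, macrophages and, in the rat, lymph nodes, so a bulk sample mixes all of these. In such samples, fewer cells of a type and less RNA per cell cannot be told apart. Obesity is known to enlarge adipocytes, to alter leptin, insulin and oestrogen signalling and to draw macrophages into fat.

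Markers of mammary tissue were detected in all 6 tissues. All 19 tested adipocyte genes, all 13 luminal genes, all 8 myoepithelial genes and all 10 milk genes were well above background on all 6 arrays. So were 31463 of the 36043 genes, all 13 skeletal muscle genes and all 11 macrophage genes. These counts therefore do not set mammary tissue apart. The share of probes well above background was 91.3%, 97.6% and 94.1% in OP replicates 1 to 3 and 95.8%, 93.5% and 87.7% in LC replicates 1 to 3. The replicate number is also the slide, and slides 1, 2 and 3 each held 1 OP and 1 LC normal tissue. All 3 LC normal tissues lay at array position 4 of their slide, while the OP tissues lay at positions 3, 2 and 2, so position and the lean group cannot be told apart.

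The lean tissues differed more from each other than the obesity-prone tissues did. Correlations over all genes were 0.983 to 0.990 between OP tissues and 0.935 to 0.964 between LC tissues. The median standard deviation of a gene was 0.137 in OP and 0.245 in LC, and it was larger in LC for 73.5% of genes. The first principal component held 42.3% of the variance and the second 26%. On the first, LC replicate 1 lay at 52.9, replicate 2 at -43.0 and replicate 3 at -80.1, whereas the 3 OP tissues lay between -4.8 and 36.6. The 2 OR tissues, at 14.8 and 25.5, lay within the OP range. On the second component LC replicate 2 (-5.3) lay within the OP range (-38.1 to -4.9), and LC replicates 1 and 3 lay at 65.3 and 36.6.

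**Figure D1:**
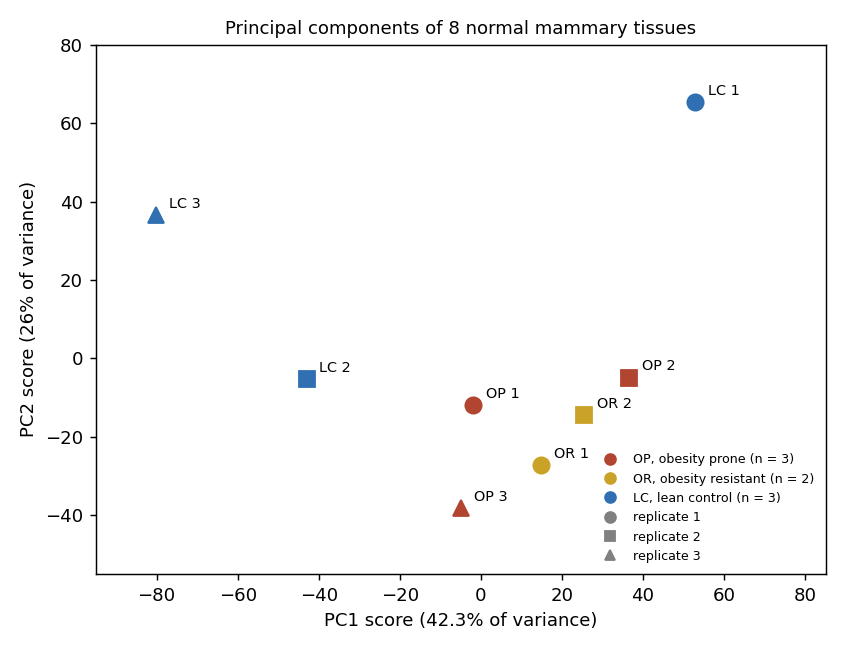
Scores of the 8 normal tissues on the first (x axis, 42.3% of the variance) and second (y axis, 26%) principal components, 1 point per sample, coloured by group and shaped by replicate. The 3 LC points lie apart from each other, at 52.9, -43.0 and -80.1 on the first component, where the OP and OR points lie between -4.8 and 36.6. On the second component LC replicate 2 (-5.3) lies within the OP range (-38.1 to -4.9).

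Each lean tissue stood apart through other cell markers. LC replicate 1 had the lowest mean of the luminal genes (9.61) and of the milk genes (9.63), and a red blood cell mean of 12.18 against 9.80 to 10.37 in the OP and OR tissues. LC replicate 2 had the highest means of the milk genes (13.58) and of the proliferation genes (9.54). LC replicate 3 had the highest means of T and NK cell genes (10.50 against 7.71 to 8.16 in the other 7 tissues) and of B and plasma cell genes (10.33 against 7.04 to 7.22). Cd79b, a part of the B-cell receptor, was at 12.97 in LC replicate 3 and at 7.48 and 7.32 in LC replicates 1 and 2. Several list results that rest on 1 of these libraries are given below with and without it, and for single genes the levels of each tissue are given instead.

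**Figure D2:**
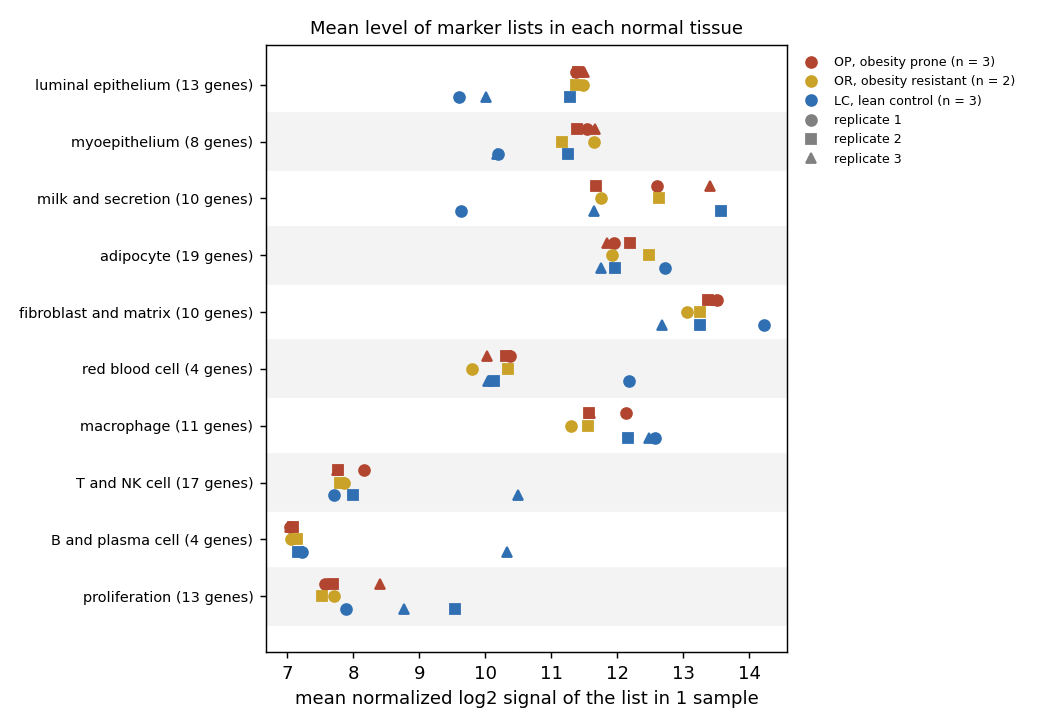
Mean normalized log2 signal (x axis) of the tested genes of 10 marker lists (y axis) in each of the 8 normal tissues, 1 point per sample, coloured by group and shaped by replicate. The luminal mean is 11.38 to 11.50 in OP and 9.61 to 11.28 in LC, and the T and NK cell mean of LC replicate 3 (10.50) lies far from the other 7.

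No gene passed the threshold between OP and LC. With limma over the 8 normal tissues, 0 of 36043 genes (0%) had an adjusted p under 0.05, and the smallest adjusted p was 0.156. At an unadjusted p under 0.05 there were 3173 genes (8.8%), 2087 (5.79%) higher and 1086 (3.01%) lower in OP. All 3 OP tissues lay above all 3 LC tissues for 2679 genes (7.43%) and below them for 2149 (5.96%). The OP mean was the higher for 42.9% of genes and the lower for 57.1%, and the median difference over all genes was -0.03. At the median standard error of 0.162, the 95% interval of a difference reached 0.388 to either side, or 1.31-fold.

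The call of 0 genes depended on which lean tissue was in the fit. Without LC replicate 1, 483 genes (1.34%) were higher and 181 (0.502%) lower in OP at an adjusted p under 0.05. Without LC replicate 2 there were 22 higher and 1 lower, and without LC replicate 3, 2 higher and 1 lower. Without OP replicate 1 a single gene, Qprt, was lower, and no gene passed without any other OP or OR tissue. With all 20 arrays in the fit, so that cancers add to the estimate of the spread, 182 genes (0.505%) were higher and 25 (0.0694%) lower. The 664 genes (1.84%) called without LC replicate 1 and the 207 called with all arrays shared 65, which is 9.79% of the former and 31.4% of the latter.

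**Figure D3:**
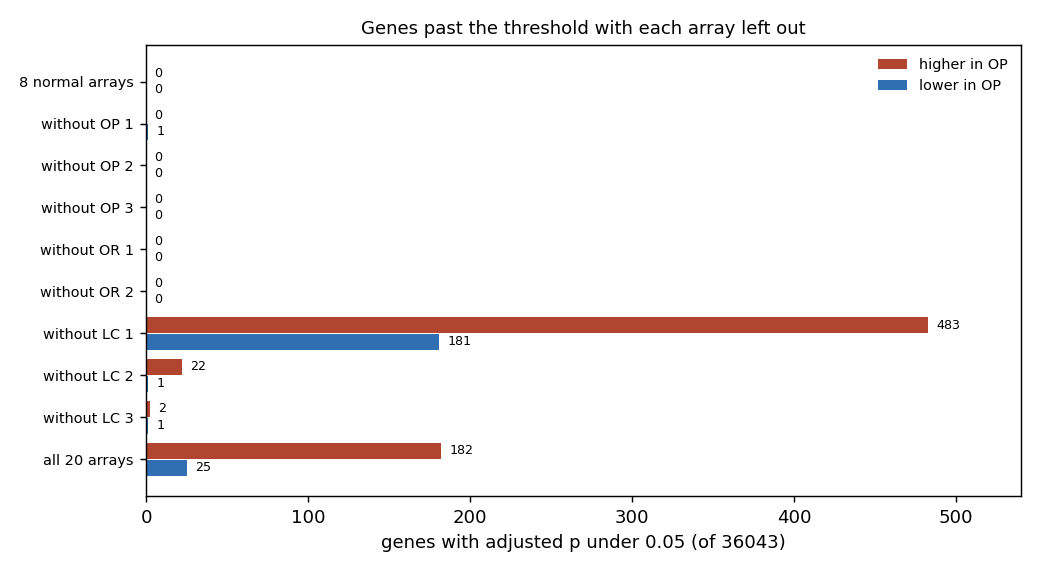
Number of genes with an adjusted p under 0.05 (x axis), higher (red) or lower (blue) in OP than LC, in the fit of the 8 normal arrays, with each array left out, and with all 20 arrays. The bars reach 483 and 181 without LC replicate 1 and are at 0 with all 8 normal arrays.

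The 10 named genes with the smallest p among those higher in OP were Egr1, Trib1, Irf2bpl, Magi3, Podxl, Pa2g4, Ank3, Irx2, Tacr1 and Cds1, none of which passed (adjusted p 0.156). Egr1, an immediate early transcription factor, was at 12.63, 12.73 and 12.69 in OP replicates 1 to 3 and at 11.53, 11.23 and 11.41 in LC. The OP tissues lay close together and above all LC tissues, by 1.29 on average (2.45-fold, SE 0.125). Trib1, a pseudokinase that directs proteins to degradation, was at 9.18, 9.32 and 9.22 in OP and at 7.39, 7.88 and 7.44 in LC (1.67, SE 0.188). Irf2bpl, a nuclear cofactor of transcription, was at 10.94, 11.06 and 11.06 in OP and at 9.94, 9.99 and 9.93 in LC (1.07, SE 0.124). For each of these genes all 3 lean tissues stood below every OP tissue, as they did for 7.43% of all genes.

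Podxl, a sialomucin of apical membranes, was at 14.85, 14.95 and 15.45 in OP and at 13.15, 13.76 and 13.23 in LC (1.70, SE 0.217). Magi3, a scaffold at cell junctions, was at 9.87, 10.03 and 10.17 against 8.70, 9.12 and 8.90 (1.12, SE 0.140). Ank3, which encodes ankyrin G and ties membrane proteins to the cytoskeleton, was at 9.35, 9.14 and 9.64 against 8.31, 7.73 and 7.96 (1.38, SE 0.183). The groups did not overlap for any of them, beside 7.43% of all genes with all OP above all LC tissues. Irx2, a homeobox transcription factor, showed the largest difference of the 10 (1.97, 3.92-fold, SE 0.268), at 13.52, 13.51 and 13.36 in OP and at 11.57, 11.98 and 10.93 in LC. The remaining differences were 0.63 for Pa2g4, an ErbB3-binding protein, 1.26 for Tacr1, the substance P receptor, and 1.21 for Cds1, an enzyme of phospholipid synthesis.

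The 10 named genes with the smallest p among those lower in OP were Rarres1, Blvra, Ccl24, Calm3, Hsd17b1, Kazald1, Qprt, Sfxn1, Colec12 and Tubb3 (adjusted p 0.156 to 0.185, none passing). Rarres1, a retinoic acid-responsive membrane protein, was at 7.10, 7.14 and 7.05 in OP and at 7.91, 7.80 and 7.81 in LC (-0.74, 1.67-fold lower, SE 0.0708). It had the smallest p of all named genes (2.27e-05 before adjustment), with little spread in either group. Hsd17b1, which converts oestrone to the more potent oestradiol, was at 8.95, 8.57 and 8.69 in OP and at 9.98, 9.46 and 9.88 in LC (-1.04, SE 0.170). Qprt, an enzyme that makes NAD from tryptophan breakdown, was at 10.37, 9.40 and 9.44 in OP and at 11.27, 11.23 and 11.31 in LC (-1.53, SE 0.256). OP replicate 1 lay nearest to the lean tissues, and without it Qprt differed by -1.85 with an adjusted p of 0.0433.

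Ccl24, a chemokine for eosinophils, was at 7.33, 6.96 and 6.95 in OP and at 8.53, 8.10 and 8.02 in LC (-1.14, SE 0.168). Colec12, a scavenger receptor, differed by -0.83 and Blvra, which makes bilirubin from biliverdin, by -0.83. Tubb3, a tubulin best known from neurons, had the largest difference (-1.60, SE 0.274), at 8.01, 7.23 and 7.09 against 9.22, 9.23 and 8.69. Calm3, a calmodulin gene, differed by -0.76, Kazald1, a secreted protein, by -1.22 and Sfxn1, a mitochondrial serine transporter, by -0.62.

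All 20 genes had the same sign within slides 1, 2 and 3 and under every alternative that gave them a value. These genes were taken from the smallest p-values of the same fit, so the agreement of the replicates is part of how they were chosen. Without LC replicate 1, 14 of the 20 passed an adjusted p of 0.05, and with all 20 arrays in the fit 7 did. In both OR tissues, all 10 higher genes lay above all 3 LC tissues and all 10 lower genes lay below them. That comparison uses the same LC tissues again, on which the choice of the genes rested. The share of all genes with OR placed in this way was not counted, so the counts are no separate support. Egr1 was at 12.59 and 12.22 in OR, Trib1 at 9.42 and 8.85, Irx2 at 13.76 and 13.28, and Qprt at 8.85 and 8.91.

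**Figure D4:**
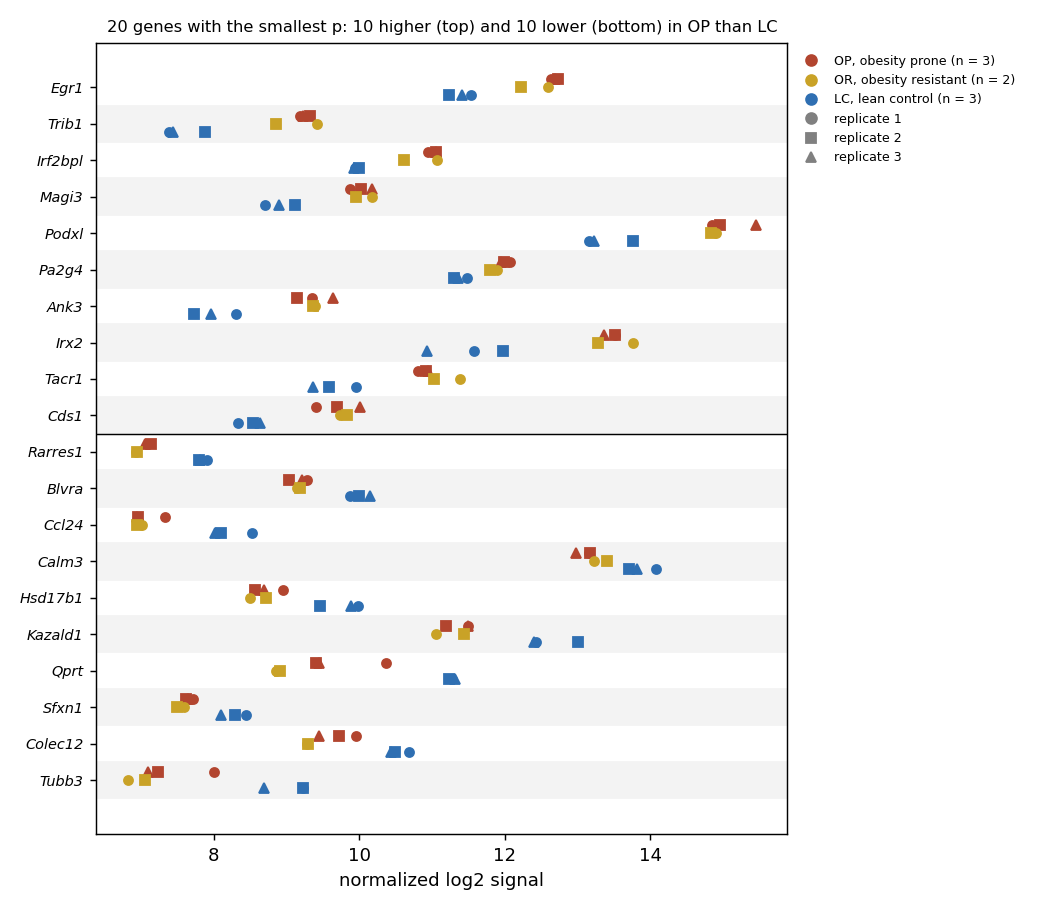
Normalized log2 signal (x axis) of the 20 named genes with the smallest p (y axis), 10 higher and 10 lower in OP, with 1 point per normal tissue, coloured by group and shaped by replicate. The OP and LC points do not overlap for any of the 20, which were chosen by the p-values of the same tissues. Of all genes, 7.43% had all OP above all LC tissues and 5.96% had all OP below. Egr1 is at 12.63 to 12.73 in OP and 11.23 to 11.53 in LC, and the OR points lie on the OP side.

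OP and OR tissues, which shared a diet, were set against each other in the same fit. No gene passed (0 of 36043), and 219 (0.608%) had an unadjusted p under 0.05. Between OR and LC, 0 passed and 3247 (9.01%) had an unadjusted p under 0.05. These comparisons share samples with that of OP and LC, and with 2 OR tissues their precision is lower. The spread was estimated over all 3 groups, and the median standard deviation of a gene was 0.245 in LC and 0.137 in OP. A low count between OP and OR therefore does not show that they are alike.

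Epithelial genes had the largest positive medians of the 35 gene lists. All 13 tested luminal genes had a higher mean in OP, with a median difference of 1.26 against -0.03 over all genes; 7 were higher at an unadjusted p under 0.05 (5.79% of all genes) and 0 passed after adjustment. The luminal median was 1.24 between OR and LC, a comparison that shares the LC tissues, and 0.00 between OP and OR. All 8 myoepithelial genes (median 0.80) and all 10 milk genes (median 1.01) also had the higher mean in OP (42.9% of all genes did), and 0 passed. With array weights the median was 0.56 for the luminal, 0.74 for the myoepithelial and -0.01 for the milk genes. Gata3, a transcription factor of luminal cells, was at 8.73, 9.69 and 9.19 in OP and at 8.08, 7.74 and 8.01 in LC (1.26, SE 0.249, adjusted p = 0.209). Cdh1, the adhesion protein E-cadherin, was at 13.15, 13.51 and 13.81 in OP and at 11.13, 13.09 and 11.61 in LC (1.54, adjusted p = 0.411). For Gata3 the lean tissues were alike, but for Cdh1 LC replicate 2 lay close to the OP tissues.

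Keratins of the luminal and basal layers are shown by Krt18 and Krt5. Krt18, a luminal keratin, was at 16.37, 16.86 and 17.18 in OP and at 14.75, 16.61 and 15.28 in LC. Krt5, a basal keratin, was at 11.29, 11.26 and 11.42 in OP and at 8.45, 11.12 and 9.0 in LC (1.80, adjusted p = 0.487). Tp63, a transcription factor of basal cells, was at 12.12, 12.36 and 12.18 against 9.71, 11.48 and 10.14 (1.78, adjusted p = 0.324). In each, LC replicates 1 and 3 were low and LC replicate 2 was near OP. The luminal median was 1.85, 0.11 and 1.78 within slides 1, 2 and 3, and the myoepithelial median was 1.57, -0.01 and 1.49. Without LC replicates 1, 2 and 3 in turn, the luminal median was 0.86, 1.87 and 1.16 and the myoepithelial 0.82, 1.18 and 0.68. With LC replicate 2 as the lone lean tissue, an alternative added after seeing the data, the luminal median was 0.10 and the myoepithelial 0.20.

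Some epithelial regulators were at a higher level in OP on every slide. Wnt4, a progesterone-induced signal of luminal cells, was at 12.01, 11.66 and 11.55 in OP and at 9.95, 10.32 and 9.02 in LC (1.98, 3.94-fold, SE 0.335, adjusted p = 0.185). Sox10, listed as a Schwann cell marker but also made by mammary epithelial cells, was at 14.06, 14.14 and 14.33 in OP and at 12.28, 13.06 and 11.96 in LC (1.74, SE 0.272, adjusted p = 0.177). The other 10 tested nerve and Schwann genes had a lower mean in OP, with a list median of -0.31, which was -0.05 without LC replicate 1, 0.13 with array weights and 0.19 without LC replicates 1 and 3. Prlr, the prolactin receptor, was at 8.85, 8.76 and 9.03 against 7.39, 8.36 and 7.44 (1.15, adjusted p = 0.245). Stat5a, named after its values were seen, was at 14.66 ± 0.16 (SD, n = 3) in OP and 13.69 ± 0.24 (n = 3) in LC, a difference of 0.97 (SE 0.145, limma adjusted p = 0.166).

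Milk protein genes are known targets of STAT5, whose binding motif is TTCNNNGAA, a sequence that reads the same on both strands. Promoter windows of 250 bases before the gene start were taken from RefSeq (GRCr8), and all 10 tested milk genes had one. The motif was in the windows of 4 of the 10 and in 7.67% of all 33469 windows. The last 180 bases before the start are shown for these 4, 5′ to 3′ along the gene, with the motif in capitals. They hold both the milk gene that varied most and one that was dim and hardly varied.
Csn1s1: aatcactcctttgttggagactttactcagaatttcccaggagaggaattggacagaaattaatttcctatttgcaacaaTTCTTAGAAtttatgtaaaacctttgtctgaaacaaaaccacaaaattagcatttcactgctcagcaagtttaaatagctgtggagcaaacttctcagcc
Csn1s2b: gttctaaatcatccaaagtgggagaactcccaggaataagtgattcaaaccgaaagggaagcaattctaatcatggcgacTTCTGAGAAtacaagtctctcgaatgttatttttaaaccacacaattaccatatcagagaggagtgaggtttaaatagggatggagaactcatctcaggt
Csn2: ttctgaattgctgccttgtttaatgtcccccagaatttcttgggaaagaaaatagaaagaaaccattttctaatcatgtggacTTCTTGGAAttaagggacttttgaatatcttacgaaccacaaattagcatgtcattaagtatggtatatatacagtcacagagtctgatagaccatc
Glycam1: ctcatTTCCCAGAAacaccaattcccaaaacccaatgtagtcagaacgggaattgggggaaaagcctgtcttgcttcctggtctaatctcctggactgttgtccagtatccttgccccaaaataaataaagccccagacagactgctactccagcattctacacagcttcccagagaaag
The casein windows lie at chr14:20638850-20639029 (minus strand) for Csn1s1, chr14:20545619-20545798 (minus) for Csn1s2b and chr14:20601644-20601823 (plus) for Csn2, and the Glycam1 window at chr7:136561300-136561479 (minus). The motif began 100 bases before the start in Csn1s1 and Csn1s2b, 97 in Csn2 and 175 in Glycam1. A match of letters is not a measured binding site.

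Milk genes varied more between tissues of a group than between the groups. Csn2, the gene of beta-casein, was at 12.06, 8.75 and 14.44 in OP and at 7.48, 15.29 and 10.22 in LC (0.75, SE 2.27, adjusted p = 0.960). Glycam1, a mucin secreted into milk, was at 16.87, 13.81 and 17.84 in OP and at 7.24, 18.26 and 17.47 in LC. Csn1s2b, a casein gene with the same motif at the same distance as Csn1s1, stayed between 6.85 and 7.17 in all 6 tissues. Those levels are dim, and the offset of 50 compresses differences there. Csn1s1 ran from 12.55 to 17.78. LC replicate 1 was the lowest and LC replicate 2 the highest for Csn2, Csn1s1 and Glycam1, so both ends of each range lay in the lean group. The median of the milk list was 2.69 within slide 1, -1.03 within slide 2 and 2.02 within slide 3. It was 0.13 without LC replicate 1 and -0.01 with array weights.

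Most hormone response genes had a higher mean in OP, with a median that varied by slide. Of 13 tested oestrogen and progesterone response genes, 11 had a higher mean in OP (median 0.45), 4 had all OP above all LC tissues (7.43% of all genes), and 0 passed. The median was 0.00, 0.09 and 0.41 within slides 1, 2 and 3, 0.20 without OP replicate 1 and 0.21 without LC replicate 3. The mean level of the list was 9.47 to 9.74 in OP and 8.78 to 9.30 in LC. Areg, a growth factor induced by oestrogen, was at 14.72, 13.62 and 12.83 in OP and at 12.21, 12.90 and 10.96 in LC (1.70, adjusted p = 0.494). The receptors themselves were dim. Esr1, the oestrogen receptor, was between 6.31 and 6.53 in all 6 tissues (0.02, SE 0.0862, adjusted p = 0.974) and Pgr, the progesterone receptor, between 6.24 and 6.82 (0.25, adjusted p = 0.644), and each was well above background on 2 of 3 LC arrays. Erbb2, a growth factor receptor, was at 8.47, 8.20 and 8.67 against 8.04, 8.39 and 7.57 (0.45, adjusted p = 0.675).

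Adipocyte genes as a list did not lean either way. Of 19 tested members, 10 had a higher and 9 a lower mean in OP (median 0.00), and the median was -0.12 and -0.07 under the 75th-percentile scalings, 0.11 in the authors' value table (11 of the 19 genes), 0.24 without LC replicate 1, -0.25 without LC replicate 3 and -0.20 without OP replicate 2. Leptin (Lep), the satiety hormone of fat cells, was at 6.81, 7.20 and 6.80 in OP and at 7.24, 6.75 and 6.73 in LC (0.03, SE 0.191, adjusted p = 0.978). Adiponectin (Adipoq) was at 14.76, 15.25 and 14.76 against 16.22, 15.36 and 14.87 (-0.56, SE 0.347, adjusted p = 0.745), with the highest value in LC replicate 1. The groups overlapped for both hormones. Lep was dim (6.73 to 7.24), where the offset of 50 in the background correction compresses differences, so its small difference does not show equal levels. Resistin (Retn) was the adipocyte gene with the smallest p, at 15.03, 14.60 and 14.67 in OP and at 15.79, 15.45 and 15.67 in LC (-0.87, SE 0.239, adjusted p = 0.328). Slc2a4, the insulin-regulated glucose transporter GLUT4, was at 11.77, 11.83 and 11.46 against 12.82, 12.03 and 12.01 (-0.60, adjusted p = 0.606). Retn and Slc2a4 were the only 2 of the 19 whose groups did not overlap, both with OP below, beside 5.96% of all genes.

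Macrophage genes had lower means in OP, on every slide. Of 11 tested members 9 had a lower mean (57.1% of all genes did; median -0.89), 4 were lower at an unadjusted p under 0.05 (3.01% of all genes), 3 had all OP below all LC tissues (5.96%) and 0 passed. The list median was -1.04 between OR and LC and 0.39 between OP and OR. Tyrobp, a signalling adaptor of myeloid cells, was at 13.64, 13.39 and 13.17 in OP and at 14.44, 14.01 and 14.43 in LC (-0.89, SE 0.172, adjusted p = 0.202). C1qa, a complement component made by macrophages, was at 14.14, 12.72 and 12.70 against 14.79, 14.26 and 14.17 (-1.23, adjusted p = 0.434), with OP replicate 1 near the lean tissues. Csf1r, the receptor of the macrophage growth factor, was at 9.08, 8.54 and 8.87 against 10.31, 9.09 and 9.66. Cd14, a receptor for bacterial lipid, ran the other way (0.96), with OP at 14.69 to 15.79 and LC at 13.33 to 15.42. The list median was -0.79, -0.73 and -1.09 within slides 1, 2 and 3. It was -0.37 with array weights and -0.42 with LC replicate 2 as the lone lean tissue. Epithelial markers were low in LC replicates 1 and 3, and their part in this result was not tested.

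Genes tied to inflamed fat did not follow one direction. Of 21 tested members of that list, 6 had a higher and 15 a lower mean in OP (median -0.17), and 0 passed. Lcn2, an iron-binding protein made by epithelium and fat, was at 14.81, 14.60 and 15.27 in OP and at 12.02, 14.93 and 12.81 in LC (1.64, adjusted p = 0.579), the pattern of the epithelial genes. Vcam1, an adhesion receptor of vessels and lymphoid stroma, was at 10.39, 10.25 and 10.11 against 11.65, 10.84 and 13.45 (-1.73, adjusted p = 0.471), highest in LC replicate 3.

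Lymphocyte genes had lower means in OP, and most of the gap lay in LC replicate 3. The median was -0.80 for 17 T and NK cell genes (16 lower), -1.06 for 4 B and plasma cell genes and -1.06 for 7 lymphoid tissue genes, with 0 passing. Without LC replicate 3 these medians were -0.03, -0.14 and -0.06. Cxcl13, a chemokine of B-cell follicles, was at 13.88 in LC replicate 3 and at 8.39 to 10.50 in the other 5 tissues. The interferon response list went from -0.38 to -0.06 without that tissue, and the MHC class II list from -0.82 to -0.45. Oas1a, an interferon-induced antiviral enzyme, did not rest on it, at 12.60, 11.99 and 11.68 in OP and 12.89, 12.75 and 12.87 in LC (-0.74, adjusted p = 0.376).

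Proliferation genes all had a lower mean in OP (13 of 13, median -0.90, 0 passing), with the widest gap on slide 2. Ccna2, the S-phase cyclin A, was at 7.33, 7.83 and 8.50 in OP and at 8.58, 9.51 and 8.86 in LC (-1.10, SE 0.347, adjusted p = 0.411). It was the only 1 of the 13 members with all OP below all LC tissues, as were 5.96% of all genes. Ccnb1, the mitotic cyclin B, was at 7.29, 7.63 and 8.83 against 8.11, 10.48 and 9.48 (-1.44, adjusted p = 0.605). The list median was -0.13, -1.98 and -0.36 within slides 1, 2 and 3 and -0.37 without LC replicate 2, the tissue that also had the highest milk genes.

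Fat and energy metabolism lists had medians between -0.17 and 0.16. The median was 0.16 for 27 fatty acid oxidation genes, -0.17 for 16 fatty acid synthesis genes, -0.02 for 25 cholesterol synthesis genes (0.01 under the 75th-percentile scaling of the processed signal), 0.02 for 18 fat storage genes (-0.07 under both 75th-percentile scalings) and -0.16 for 15 oxidative phosphorylation genes. Of the oxidative phosphorylation genes 12 had a lower mean in OP, 3 of them with all OP below all LC tissues (5.96% of all genes), and the list median was -0.09, -0.40 and -0.05 within slides 1, 2 and 3. Cpt1a, which admits fatty acids to mitochondria, was at 10.12, 9.83 and 10.51 in OP and at 9.06, 9.67 and 9.15 in LC (0.86, adjusted p = 0.309). LC replicate 2 lay nearest to OP, as it did for the epithelial genes. Tm7sf2, a sterol reductase, was at 9.62, 10.12 and 9.56 against 11.44, 10.69 and 10.66 (-1.16, adjusted p = 0.230).

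Genes that break down branched-chain amino acids had lower means in OP within each slide. Of 12 tested members 10 had a lower mean (57.1% of all genes did; median -0.18; within slides -0.17, -0.27 and -0.16), 4 had all OP below all LC tissues (5.96% of all genes) and 0 passed. The list median was -0.24 between OR and LC. Bcat2, the mitochondrial aminotransferase that starts this pathway, was at 10.31, 10.21 and 9.97 in OP and at 11.23, 10.77 and 10.75 in LC (-0.76, SE 0.160, adjusted p = 0.222). Mccc2, a subunit of an enzyme of leucine breakdown, was at 11.31, 11.43 and 11.31 against 11.68, 11.86 and 11.50 (-0.33, adjusted p = 0.494). The mean of the list was 10.12 to 10.22 in OP and 10.31 to 10.47 in LC. The size of the shift is small, and the median was -0.12 to -0.25 without each LC tissue in turn.

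In the insulin and IGF list, 14 of 18 tested genes had a higher mean in OP (median 0.08), and 0 passed. Igf1r, the receptor of insulin-like growth factors, was at 8.10, 8.02 and 8.11 in OP and at 7.66, 7.42 and 7.60 in LC (0.51, 1.43-fold, SE 0.0897, adjusted p = 0.187). Its ligand Igf1 was at 16.23, 16.69 and 16.75 against 17.56, 15.88 and 15.62 (0.20, SE 0.508, adjusted p = 0.953), and its sign turned under the 75th-percentile scalings. The receptor was close within each group, and the ligand was spread over the lean tissues, highest in LC replicate 1. Pik3r1, a regulatory subunit of PI3 kinase, differed by 0.57 (adjusted p = 0.371) and Ptpn1, a phosphatase of the insulin receptor, by 0.49 (adjusted p = 0.475). Igf1r, Pik3r1 and Ptpn1 had all OP above all LC tissues, as did 7.43% of all genes.

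Clock genes had a list mean of 8.74 to 9.10 in OP and 8.56 to 8.59 in LC. Of 14 tested members 10 had a higher mean in OP (median 0.27), 3 had all OP above all LC tissues (7.43% of all genes) and 0 passed. The list median was 0.33 between OR and LC. Bhlhe41, a repressor in the clock loop, was at 14.11, 14.42 and 14.32 in OP and at 12.04, 13.45 and 12.14 in LC (1.74, SE 0.368, adjusted p = 0.222). Nr1d1, the repressor REV-ERB alpha, was at 9.34, 8.28 and 8.90 against 7.63, 8.45 and 8.02 (0.81, adjusted p = 0.533). Per1 and Dbp, both with daily rhythms, were highest in OP replicate 1, at 9.29 and 13.29, against 7.40 and 12.07 in OP replicate 2. The hour of tissue collection is not given in the labels used here, and its part in these values was not tested. The E-box CACGTG, which clock activators bind and which reads the same on both strands, was in the 250-base windows of 3 of 13 clock genes with a window and in 5.59% of all windows. The last 180 bases before the start of Bhlhe41 (chr4:180569356-180569535, minus strand, GRCr8) are shown with the E-box in capitals, since it had the largest difference of the list.
Bhlhe41: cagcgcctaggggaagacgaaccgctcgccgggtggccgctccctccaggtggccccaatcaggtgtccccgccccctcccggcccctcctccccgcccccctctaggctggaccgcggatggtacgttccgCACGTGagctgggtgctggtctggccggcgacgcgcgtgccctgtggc
The E-box begins 48 bases before the start.

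Remaining lists held few members that differed. Egr1 led the immediate early list, in which 9 of 16 tested genes had a higher mean in OP (median 0.14). Fos was at 9.57, 10.63 and 10.20 in OP and at 9.46, 9.70 and 8.83 in LC (0.80, adjusted p = 0.545). Of 17 tested genes of oxidative stress defence 14 were lower (median -0.10), led by Gpx1, a glutathione peroxidase, at 15.41, 15.13 and 15.02 against 16.23, 15.72 and 15.71 (-0.70, adjusted p = 0.328). Ccn2, a matrix protein induced by TGF-beta, was at 11.53, 12.03 and 11.62 against 10.65, 10.80 and 10.36 (1.12, SE 0.236, adjusted p = 0.222). Flt1, a receptor for VEGF on vessels, was at 7.50, 7.34 and 7.91 against 6.96, 6.76 and 6.53 (0.83, adjusted p = 0.223). The groups did not overlap for Gpx1, Ccn2 or Flt1, beside 7.43% of all genes with all OP above all LC tissues and 5.96% with all OP below. The 9 tested p53 targets had a median of -0.05, with Cdkn1a, the cell cycle inhibitor p21, at 9.97, 10.31 and 9.71 against 11.57, 10.09 and 10.39 (-0.69, adjusted p = 0.704).

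Over all 35 lists, 437 different genes were tested and 0 passed an adjusted p of 0.05. The median was above 0 in 13 lists and below 0 in 21. The list mean of all 3 OP tissues lay above all 3 LC tissues in 4 lists (luminal epithelium, myoepithelium, oestrogen and progesterone response, circadian clock). It lay below them in 3 (macrophage, B and plasma cell, branched-chain amino acid breakdown). Of single genes, 7.43% lay above and 5.96% below in this way. The gaps were narrow. In the order above, the nearest OP and LC means were 11.38 and 11.28, 11.39 and 11.25, 9.47 and 9.30, and 8.74 and 8.59. For the lists below they were 12.14 and 12.17, 7.09 and 7.16, and 10.22 and 10.31. Prlr, Areg and Foxa1 are in both the luminal and the hormone response list.

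**Figure D5:**
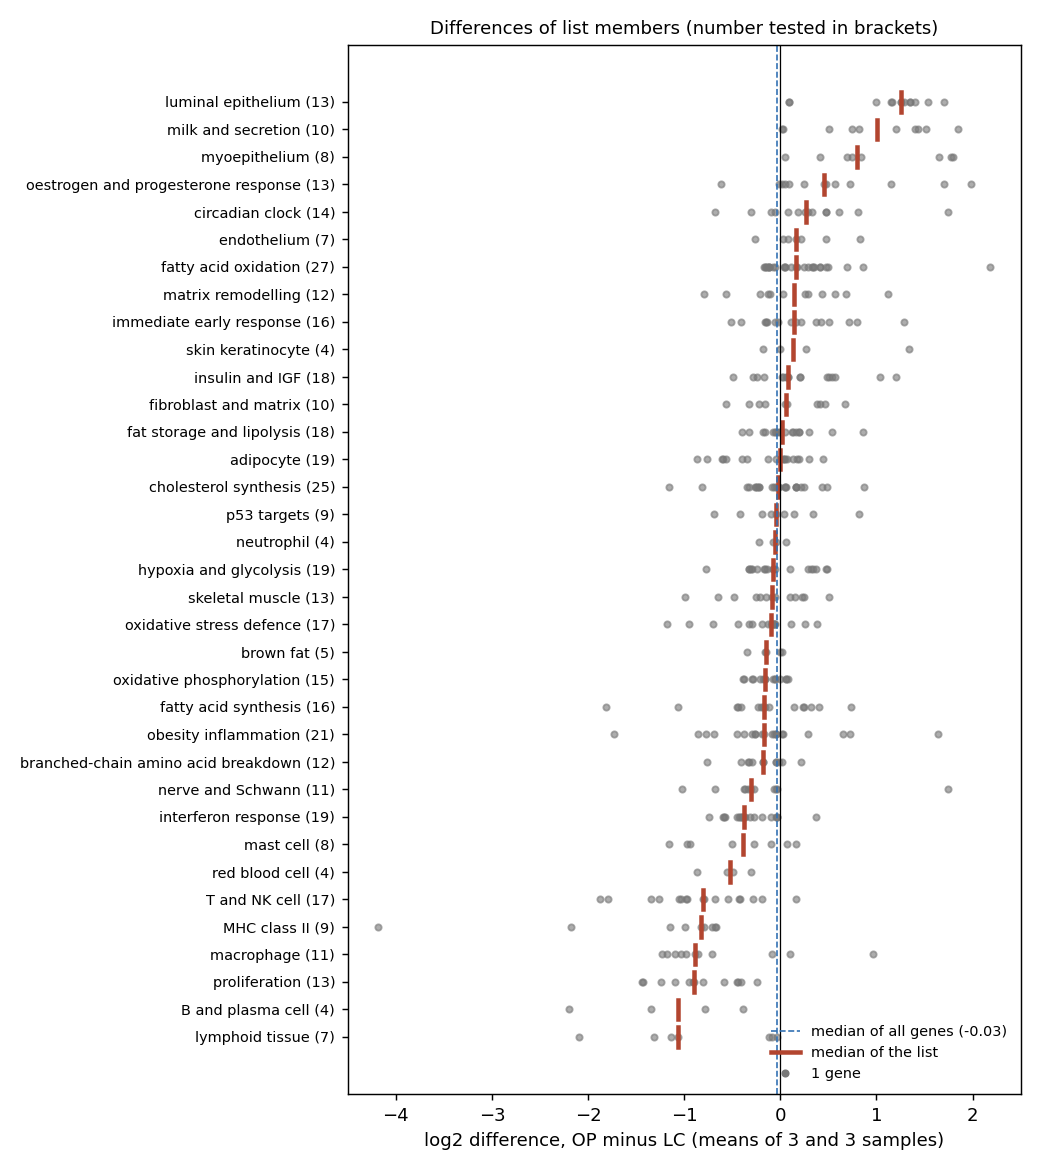
Log2 difference between the OP and LC means (x axis) for each tested gene (grey points) of the 35 lists (y axis, number tested in brackets), with the median of each list (red bar) and of all genes (dashed line, -0.03). Luminal, milk and myoepithelial genes lie to the right, with medians of 1.26, 1.01 and 0.80, and lymphoid, proliferation and macrophage genes to the left; the sign of the fat storage, fibroblast, cholesterol and neutrophil medians turned under another scaling, and the adipocyte median of 0.00 went to -0.12 and -0.07.

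The difference between OP and LC was also compared between normal tissue and the cancers (6 OP and 3 LC) by an interaction term over all 20 arrays. OP cancer replicates 3 to 6 lay on slide 4, and LC cancer replicates 2 and 3 on slide 5. Only slide 1 held cancers of both groups, so slide and group can largely not be told apart in the cancers. No gene passed (0 of 36043), the smallest adjusted p was 0.066, and 3076 genes (8.53%) had an unadjusted p under 0.05. Gtf2ird1, a transcription factor gene, had a difference of 0.87 in normal tissue and -0.37 in cancers (interaction 1.23, adjusted p = 0.0732). Magi3 had 1.12 and -0.29 (1.41, adjusted p = 0.077). Reep2, a membrane-shaping protein of the endoplasmic reticulum, had 0.73 and -0.80 (1.53, adjusted p = 0.0882). The olfactory receptor gene Or4f61d had 1.13 and -0.01 (adjusted p = 0.077) and Zcchc9 had -0.04 and 0.93 (-0.97, adjusted p = 0.0934). Egr1 differed by 1.29 in normal tissue and by -0.18 in cancers (1.47, SE 0.550, adjusted p = 0.430). The luminal list, with a median of 1.26 in normal tissue, had -0.22 in cancers. With slide as a block over the 20 arrays 59 genes passed the interaction test (smallest adjusted p 0.00374), and with slides 1 to 3 alone 22 passed. Without 1 normal tissue, 752 passed when LC replicate 1 was left out, 74 without LC replicate 2 and 12 without OP replicate 1.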

How the data were processed

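Single-colour Agilent scanner files were used. Per the file headers, they hold spot and local background brightness as intensity and quality marks (other, 0 or 1), written by Feature Extraction 9.5.1.1. The submitters' processing notes name version 10.7.3.1. The authors deposited a value table in log2 units, which matched the processed signal scaled to the 75th percentile of its array and set to a median of 0 per probe (20793 probes).

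The background was corrected by normexp on median signals (offset 50), and 20 arrays were quantile-normalized. Of 41012 probes, 115 carried an outlier mark and 825 were dim in all 6 groups (well above background on a share of arrays below 0.5), and these were dropped. The brightest probe stood for each gene, which gave 36043 genes, 8662 with a symbol through RefSeq accessions. The rest were counted and not named. The 8 normal arrays were fitted with limma 3.58.1 in R 4.3.3 (5 residual degrees of freedom), with Benjamini-Hochberg adjustment over all genes and a threshold of 0.05. The fit was tested on simulated data with independent genes and the same spread in every group. In the real tissues the spread was larger in LC than in OP, which the simulation did not cover. Figures used Python 3.11.15 with matplotlib 3.10.9.

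The groups, lists and members were chosen with earlier results of these data known. Named genes were the 10 smallest p in each direction (none passed), up to 3 genes per list, 5 for the interaction, and Lep, Adipoq, Esr1, Pgr, Igf1, Csn2 and Erbb2. Cyp19a1 was not analysed here, and the results of some single genes are not reported. Other genes are given from the fixed lists and were chosen after their values were seen. Alternatives covered scaling, background, filter, probe rule, arrays, slide block, weights and left-out replicates.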

Additional observations from a re-analysis of the deposited data

How the results depend on the processing

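The count of genes past the threshold was 0 under every other scaling, background, filter and probe setting, with array weights, with trend and robust estimation, with the 6 arrays alone, with slide as a block over the 8 normal arrays, and without slide 3; the smallest adjusted p was 0.0542 (trend and robust) to 0.787. The replicate block (slide, 6 arrays) gave 0 genes and the smallest adjusted p of 0.787. Deviations from the group means of same-numbered OP and LC tissues correlated at -0.20, -0.34 and 0.28. With 3 tissues per group the deviations depend on each other, so these values cannot decide whether tissues of the same slide pair. With all 20 arrays 182 genes were higher and 25 lower, and with LC replicates 1 and 3 left out (chosen after seeing the data) 598 and 266; with each tissue left out in turn the counts ran from 0 to 483 higher and from 0 to 181 lower. The interaction gave 59 genes with slide as a block, 22 with slides 1 to 3 only, 0 to 752 with each normal tissue left out, and 0 otherwise. The cause of these changes was not tested.

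Of 3715 alternative values of 134 named genes, 3414 were labelled the same, 207 moved, 41 newly passed the threshold and 53 turned sign, in 21 genes. For a refit, the same meant the same direction and side of the threshold. Differences within a slide had no p-value. They were the same where they lay within the standard deviation of the groups from the main difference, and moved otherwise. Turns of sign within a slide are not among the 53. With each tissue left out, the difference ran from -0.54 to 0.02 for Cox8b, -0.26 to 0.03 for Ucp1, -0.74 to 0.02 for Eno3, -0.50 to 0.23 for Krt4, -1.21 to 0.06 for Blk, -0.49 to 0.12 for S100a9, -0.88 to 0.27 for Hbb-b1, -0.10 to 0.20 for Lep, -0.05 to 0.07 for Esr1, -0.17 to 0.80 for Igf1, -1.0 to 2.90 for Csn2 and -0.12 to 0.04 for Zcchc9. Without LC replicates 1 and 3 it was 0.00 for Cox8b, -0.69 for Lalba, 0.30 for Cldn5, 0.03 for Eno3, -0.45 for Krt15, 0.04 for Cd4 and Blk, 0.26 for Hbb-b1, -0.04 for Lcn2 and Esr1 and -3.54 for Csn2. Without slide 3 it was 0.01 for Cox8b, 0.06 for Cldn5, 0.08 for Blk, -0.01 for Mmp8, -0.08 for Esr1, -0.26 for Igf1 and -0.98 for Csn2. With array weights it was 0.18 for Cldn5, -0.03 for Esr1 and -1.32 for Csn2. With the 75th-percentile scaling of the processed signal it was 0.05 for Krt4, 0.09 for S100a8, -0.10 for Eno1 and -0.01 for Igf1, after normexp -0.08 for Mmp8, 0.00 for Lep, -0.10 for Esr1 and -0.02 for Igf1, in the authors' value table -0.10 for Eno1 and -0.01 for Igf1, and with the mean over probes -0.07 for Igf1. Levels between 6 and 7 are dim, and differences of such genes are compressed by the normexp offset of 50.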

Other observations

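Muscle and blood genes varied by tissue rather than by group. The mean of 13 skeletal muscle genes was 9.79 in OR replicate 2 and 7.89 to 8.43 in the OP tissues and 8.19 to 8.23 in the LC tissues. Actn3, a protein of fast muscle fibres, was at 10.98 in OR replicate 2 and at 8.06 in OR replicate 1. The beta-globin genes Hbb and Hbb-b1, near-identical copies whose probes are read as uncertain, were at 12.79 and 17.23 in LC replicate 1 and at 9.93 to 10.83 and 14.92 to 15.52 in the other 5 OP and LC tissues.

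Mast cell genes divided the obesity-prone tissues. The mean of 8 mast cell genes was 9.49 in OP replicate 1 and 8.57 and 8.85 in OP replicates 2 and 3, against 9.19 to 9.58 in LC, with a median difference of -0.39 and 0 members passing. Mcpt1, a mast cell protease, was at 9.5, 7.50 and 8.36 in OP and at 9.52, 9.80 and 9.51 in LC (-1.16, limma adjusted p = 0.541). MHC class II genes also had their highest OP mean in replicate 1 (11.43, against 9.84 and 9.60).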
